A study of Homo sapiens with 6 samples.

Results

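The genes described here are 10 regulators of mTORC1, the kinase complex that couples growth to nutrients, of the 63140 genes in the expression tables. They were chosen by name for their roles, with earlier results of these data known, and matched by symbol with no threshold on a measured value. They include the stress-induced inhibitors DDIT4, SESN1, SESN2 and SESN3 and the mTOR-binding inhibitor DEPTOR. The others are the TSC complex genes TSC1 and TSC2, the Rag GTPase genes RRAGC and RRAGD, and FNIP1, which encodes a partner of folliculin. BT-549 is a human triple negative breast cancer line, and the cells sequenced were wild type, without the study's transgene. Polyadenylated RNA was sequenced from 3 wells in unconditioned medium (UCM) and 3 wells in adipocyte conditioned medium (ACM), each harvested after 24 h. ACM was the medium of mouse OP9 cells turned into adipocytes in a low-serum mix of insulin, oleate and albumin. The sample labels give the ACM as 50% while the supplement of the study describes it as undiluted, and a full recipe for UCM was not given in the sources used here, so secreted factors and differences in serum, insulin, oleate or base medium cannot be told apart. The wells are 3 cultures of one line per medium, and p-values measure the spread between these cultures.

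The libraries held 17135288 to 21053257 expected counts, and 14451 genes passed the filter on low counts and were tested. ACM gave 484 of them higher and 320 lower at an adjusted p at or below 0.05. The labelled cell type is epithelial, but the 8 epithelial markers examined (EPCAM, CDH1 and keratins among them) summed to 1.33 to 1.96 CPM (counts scaled to the library total) in ACM and 1.66 to 2.80 CPM in UCM, and the 5 mesenchymal markers to 5682 to 6439 CPM over all libraries. Of the 8 adipocyte markers, ADIPOQ, LEP, CIDEC and RETN had no count in any library, and the 8 summed to 2.08 to 3.10 CPM in ACM and 1.40 to 1.92 CPM in UCM.

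mTORC1 switches on at the lysosome, where the Rag GTPases, as pairs of RagA or RagB with RagC or RagD, bring it to the GTPase Rheb when amino acids are plentiful. The TSC1-TSC2 complex turns Rheb off, and DDIT4 (also called REDD1), made under hypoxia, energy stress and amino acid shortage, acts through TSC. SESN1 and SESN2 bind the GATOR2 complex when leucine is low and so keep the Rags inactive. DEPTOR binds mTOR itself, and FNIP1 with folliculin acts on RagC and RagD.

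In ACM, 2 of the 9 tested genes rose, DDIT4 by 2.34-fold and SESN2 by 1.94-fold. None of the 9 fell at the adjusted threshold of edgeR's quasi-likelihood test, while SESN1 and RRAGC were lower at an unadjusted p at or below 0.05 and DESeq2 called 1 gene lower, RRAGC. Over all tested genes 3.35% were called higher and 2.21% lower (5.56% either way), and at the unadjusted threshold 11.9% were higher and 11.5% lower (23.3% either way). The median log2 FC was -0.06 for the 9 genes against -0.01 over all genes. All 3 ACM values lay above all 3 UCM values for 2 of the 9 genes (13.9% of all tested genes) and below them for 4, namely SESN1, RRAGC, RRAGD and FNIP1 (15.1% of all tested genes, with 29% apart either way). In bulk RNA, a change in the make-up of the culture and a change in RNA per cell cannot be told apart.

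The 250 bases before the RefSeq start (GRCh38.p14) are shown for the 2 genes that rose and for RRAGC, the gene nearest to the threshold in the other direction. The windows are chr10:72273674-72273923 on the plus strand for DDIT4, chr1:28259268-28259517 on the plus strand for SESN2 and chr1:38859773-38860022 on the minus strand for RRAGC. Capitals mark ACGTG, the only form searched of the core that hypoxia-inducible factors bind, and in RRAGC the E-box CACGTG that contains it.
DDIT4: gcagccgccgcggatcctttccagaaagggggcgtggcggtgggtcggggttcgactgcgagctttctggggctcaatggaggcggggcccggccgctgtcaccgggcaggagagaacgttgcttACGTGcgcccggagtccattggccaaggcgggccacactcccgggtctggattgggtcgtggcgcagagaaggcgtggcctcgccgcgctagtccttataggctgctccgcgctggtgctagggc
SESN2: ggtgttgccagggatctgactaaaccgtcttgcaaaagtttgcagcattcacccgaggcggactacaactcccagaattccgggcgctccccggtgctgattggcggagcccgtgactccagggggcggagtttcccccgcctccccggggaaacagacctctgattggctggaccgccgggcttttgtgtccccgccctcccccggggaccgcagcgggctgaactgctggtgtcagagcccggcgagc
RRAGC: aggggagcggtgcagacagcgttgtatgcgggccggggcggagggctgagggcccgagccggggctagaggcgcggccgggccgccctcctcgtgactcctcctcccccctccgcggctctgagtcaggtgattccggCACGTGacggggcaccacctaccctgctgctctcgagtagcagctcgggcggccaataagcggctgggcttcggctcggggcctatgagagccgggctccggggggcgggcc

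In DDIT4 the ACGTG began 125 bases before the start, and in RRAGC the CACGTG began 112 bases before it. The SESN2 window held none of the 5 motifs searched on both strands. These were ACGTG, its longer form CACGTG, the ATF4 composite core TGATGNAA, the cAMP response element TGACGTCA and the FOXO core GTAAACA. Promoter windows were found for 8 of the 10 genes, 11 windows in all because SESN1 has 3 and TSC2 has 2, and not for DEPTOR and RRAGD. ACGTG was in 4 of the 11 windows, those of DDIT4, RRAGC, FNIP1 and TSC2, and in 18.5% of 35116 promoter windows of the same length. CACGTG was in 3 of the 11 windows (RRAGC, FNIP1, TSC2), each also counted for ACGTG, and in 6.34% of all windows. TGATGNAA was in 1 window, of TSC2, and in 3.14% of all, while TGACGTCA (1.65% of all) and GTAAACA (2.98% of all) were in none of the 11. The 4 windows with ACGTG were 68.8 to 73.6% G and C, against a median of 58% over all windows. The shares over all windows were not matched for this. A match describes the letters of the window and does not show a bound factor.

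DDIT4, on chromosome 10 (72273919 to 72276036, plus strand), was the most abundant of the 10 genes and changed most. Its level was 408, 475 and 265 CPM in ACM replicates 1, 2 and 3 and 194, 158 and 138 CPM in UCM replicates 1, 2 and 3. The groups did not overlap, with the lowest ACM library, replicate 3, at 1.36 times the highest UCM library. The mean of the ACM libraries was 383 ± 107 CPM, and that of the UCM libraries 163 ± 28.5 CPM (SD, n = 3). The log2 FC was 1.23 (SE 0.24, 95% confidence interval 0.65 to 1.81), with an adjusted p of 0.0424 from edgeR's quasi-likelihood test. The spread within ACM was wide, a coefficient of variation of 28.1% against 17.5% in UCM, and the gene ranked 676 by p. Leaving out 1 library, the increase was 1.04 to 1.43 on the log2 scale. The call was lost without ACM replicate 1 (edgeR adjusted p = 0.0809), ACM replicate 2 (0.0915), UCM replicate 1 (0.0718), UCM replicate 2 (0.179) or UCM replicate 3 (0.154), and was kept without ACM replicate 3 (0.0118).

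SESN2, the stress-induced sestrin, on chromosome 1 (28259518 to 28282491, plus strand), rose with a narrower spread. Its level was 35.6, 41.7 and 34.2 CPM in ACM and 20.1, 18.9 and 18.3 CPM in UCM, in the order of replicates 1 to 3. All ACM libraries were higher, the lowest of them by 1.70 times the highest UCM library. The means were 37.2 ± 4.01 CPM and 19.1 ± 0.956 CPM (SD, n = 3). The log2 FC was 0.96 (SE 0.10, 95% confidence interval 0.73 to 1.19), with an adjusted p of 0.00188 by edgeR, the 16th smallest p of all tested genes. The call held in 15 of 15 alternative settings, with a log2 FC of 0.86 to 1.01 and an adjusted p of at most 0.0116.

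**Figure D1:**
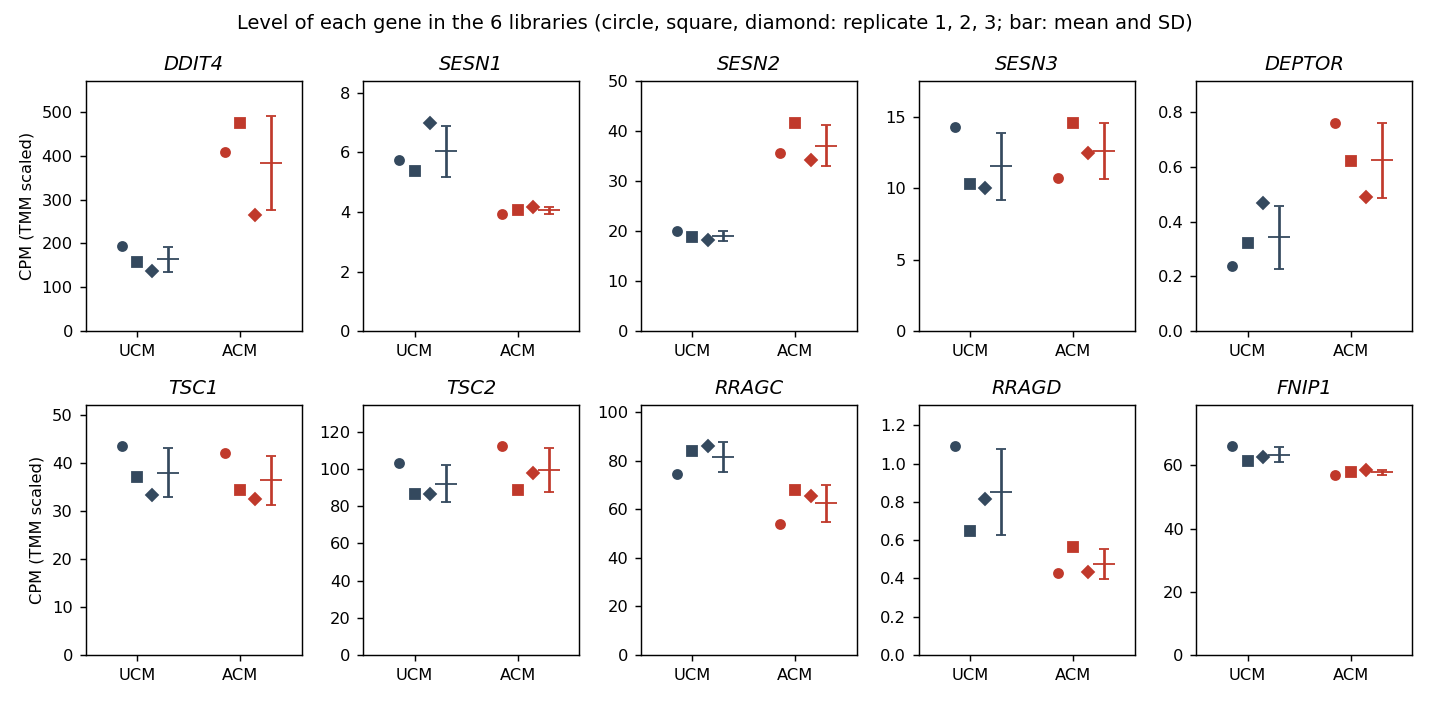
Level of each of the 10 genes in CPM (vertical axes, from 0, one scale per gene) in the 3 UCM and 3 ACM libraries, with symbols for replicates 1, 2 and 3 and a bar for the mean and SD. DDIT4 and SESN2 sit higher in each ACM library than in any UCM library, while SESN1, RRAGC, RRAGD and FNIP1 sit lower.

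SESN1 and SESN3 were not called in either direction. SESN1, known as a p53 and FOXO target, was at 3.94, 4.06 and 4.19 CPM in ACM and 5.73, 5.38 and 6.997 CPM in UCM. Each ACM library was lower than each UCM library, at 72 to 83 expected counts against 100 to 121. The log2 FC was -0.57 (SE 0.18, 95% confidence interval -0.97 to -0.16), which did not pass the adjusted threshold (edgeR adjusted p = 0.0978), and it passed in none of the 15 alternatives. SESN3, a FOXO target in textbook accounts, was at 10.7, 14.6 and 12.5 CPM in ACM and 14.3, 10.3 and 10.0 CPM in UCM. These groups overlapped, with a log2 FC of 0.12 (SE 0.17, 95% confidence interval -0.26 to 0.50, edgeR adjusted p = 0.732).

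Within the family, the share of SESN2 was higher in each ACM library than in any UCM library. On the length-scaled TPM scale (abundance per transcript length, scaled to the library sum), SESN2 made up 82.4, 82.5 and 81.2% of the sestrin sum in the ACM libraries and 67.0, 69.5 and 65.3% in the UCM libraries. The share of SESN1 was 8.43 ± 0.788% in ACM and 18.9 ± 3.07% in UCM (SD, n = 3), and that of SESN3 was 9.52 ± 0.899% and 13.9 ± 2.10%. The sestrin sum was 20.1 ± 1.64 TPM in ACM and 12.8 ± 0.836 TPM in UCM. The log2 ratio of SESN2 to SESN1 within a library, in CPM, was 3.18 ± 0.17 in ACM and 1.67 ± 0.25 in UCM, a difference of 1.51. For SESN2 to SESN3 it was 1.57 ± 0.15 and 0.74 ± 0.21, a difference of 0.82. An exact two-sided permutation test gave p = 0.1 for each, the smallest p that 3 against 3 libraries allow, and 0.15 after Benjamini-Hochberg adjustment over 3 ratios, so neither could pass 0.05.

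DEPTOR was barely detected and was too low to be tested. It had 16, 11 and 9 expected counts in ACM and 5, 6.41 and 8 in UCM, or 36 against 19.4 in total. In CPM these were 0.760, 0.620 and 0.489 against 0.237, 0.323 and 0.466, so the groups did not overlap but the lowest ACM value was only 1.05 times the highest UCM value. DEPTOR shares 252 exon bases with the antisense gene DEPTOR-AS1, which had 1 count in total in ACM and 11.6 in UCM. Whether counting used the strand is not given in the sources used here, so reads of these genes cannot be told apart with certainty.

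**Figure D2:**
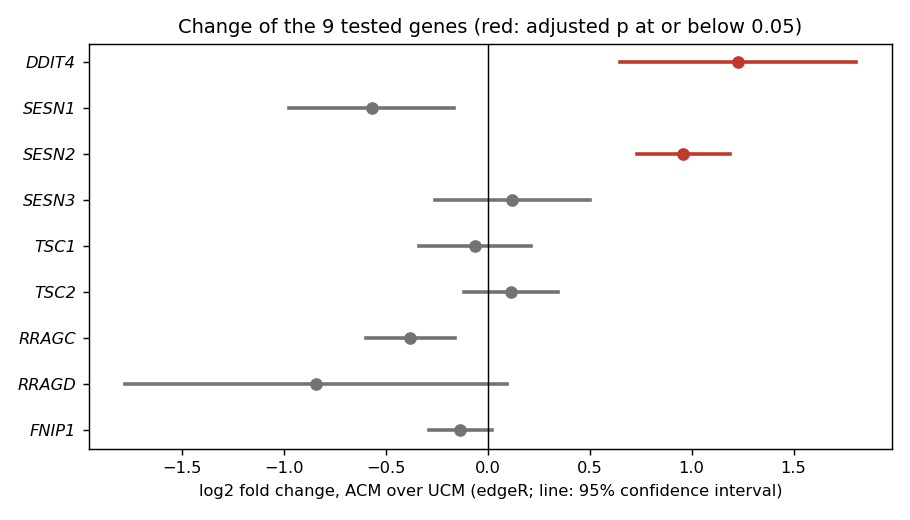
Log2 fold change of ACM over UCM by edgeR (horizontal axis) for the 9 tested genes, each a point with its 95% confidence interval, red where the adjusted p was at or below 0.05. DDIT4 (1.23) and SESN2 (0.96) are red, the intervals of SESN1 and RRAGC lie below 0 without passing the adjusted threshold, and RRAGD has the widest interval.

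TSC1 and TSC2, the hamartin and tuberin genes through which DDIT4 acts, gave overlapping groups. TSC1 was at 42.1, 34.5 and 32.6 CPM in ACM and 43.5, 37.1 and 33.4 CPM in UCM, with a log2 FC of -0.06 (SE 0.12, 95% confidence interval -0.34 to 0.21, edgeR adjusted p = 0.815). TSC2 was at 112, 88.7 and 98.0 CPM in ACM and 103, 86.4 and 86.4 CPM in UCM, with a log2 FC of 0.11 (SE 0.10, 95% confidence interval -0.12 to 0.34, edgeR adjusted p = 0.563). Replicate 1 was the highest library of each medium for both genes. Coefficients of variation between cultures were 10.7 to 13.8% for both genes, and changes within the intervals cannot be told from 0 here. TSC2 shares 784 exon bases with PKD1 on the opposite strand, which had 18495 counts in the ACM libraries together against 5738 for TSC2.

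The RagC gene RRAGC, on chromosome 1 (38838198 to 38859772, minus strand), stood just outside the threshold. It was at 53.9, 68.1 and 65.7 CPM in ACM and 74.5, 83.9 and 85.9 CPM in UCM. The groups did not overlap, and averaged 62.6 ± 7.57 CPM with ACM against 81.5 ± 6.12 CPM with UCM (SD, n = 3). The log2 FC was -0.38 (SE 0.10, 95% confidence interval -0.60 to -0.16), with an adjusted p of 0.0510 by edgeR. It passed in 6 of the 15 alternatives, among them DESeq2 (adjusted p = 0.0204) and edgeR without UCM replicate 1 (adjusted p = 0.0245), and the log2 FC stayed between -0.45 and -0.28.

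RRAGD, the RagD gene and a known TFEB target, was near the detection limit. It had 9, 10 and 8 expected counts in ACM and 23, 12 and 14 in UCM, or 0.428, 0.563 and 0.435 CPM against 1.09, 0.645 and 0.816 CPM. On this scale the ACM libraries were all lower, with a log2 FC of -0.84 (SE 0.42, 95% confidence interval -1.78 to 0.09, edgeR adjusted p = 0.265). In TPM the groups overlapped, with 0.44, 0.89 and 0.51 for ACM replicates 1 to 3 against 0.89, 0.51 and 0.25 for UCM. The effective length of the gene, a mean over its transcripts that the TPM divides by, was 874 to 1375 bases in ACM and 1769 to 4647 bases in UCM. The direction for RRAGD therefore depended on the scale, a log2 FC of 0.18 in edgeR with effective lengths as offsets. RRAGC made up 98.4 ± 0.513% of the RagC and RagD sum in TPM in ACM and 98.9 ± 0.724% in UCM. The log2 ratio of RRAGD to RRAGC differed by -0.40 between media in CPM (exact permutation p = 0.3, adjusted 0.3) and by 0.61 in TPM with 0.1 added (exact permutation p = 0.4).

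FNIP1 had the tightest values of the set. It was at 57.0, 57.9 and 58.4 CPM in ACM and 66.0, 61.5 and 62.6 CPM in UCM. The groups did not overlap, but the gap was small, with a log2 FC of -0.13 (SE 0.07, 95% confidence interval -0.29 to 0.02, edgeR adjusted p = 0.280). A second protein-coding gene on the same strand shares 281 exon bases with FNIP1 and had 51.3 counts, all in ACM replicate 1.

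**Figure D3:**
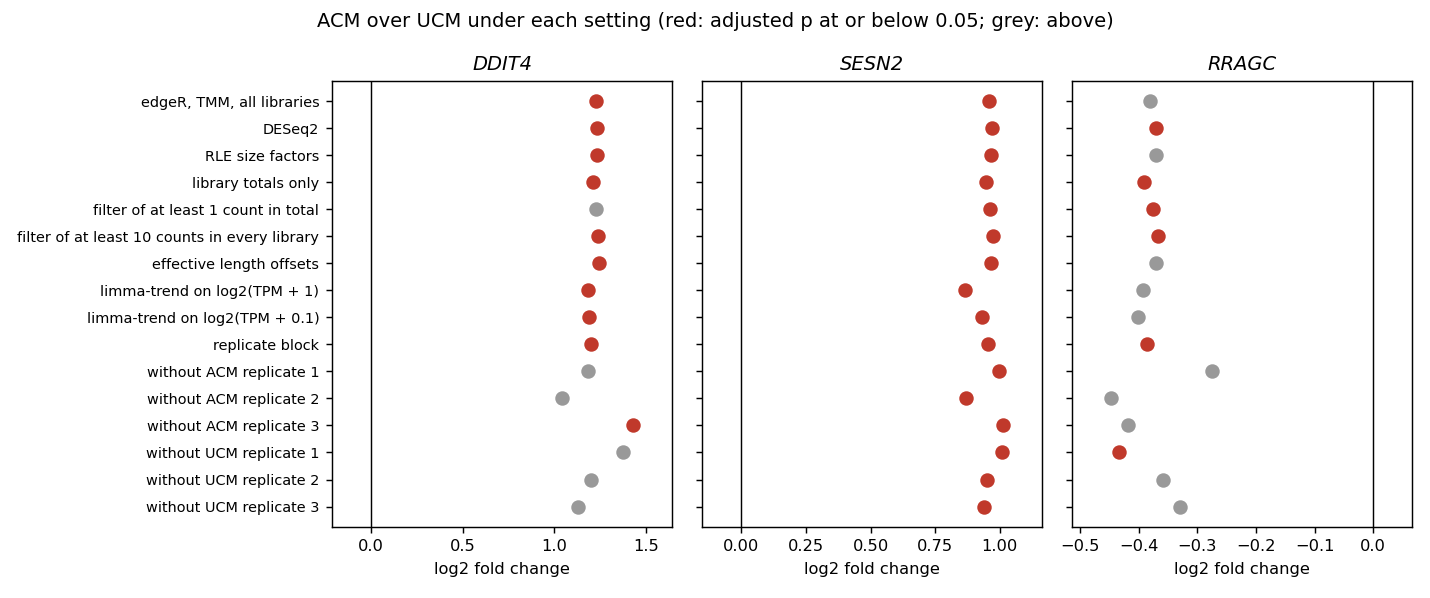
Log2 fold change of ACM over UCM (horizontal axes) for DDIT4, SESN2 and RRAGC under each setting named at the left, red where the adjusted p was at or below 0.05. SESN2 is red throughout, DDIT4 is grey in 6 of the 15 alternatives and RRAGC is red in 6 of them, and none of the 3 genes crosses 0.

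Levels between genes were compared per length, as TPM. In UCM the order was DDIT4 (176 ± 33.0 TPM, SD, n = 3), RRAGC (48.7 ± 2.92), TSC2 (34.7 ± 6.61), FNIP1 (16.8 ± 0.524), TSC1 (10.1 ± 2.52), SESN2 (8.60 ± 0.520), SESN1 (2.41 ± 0.364), SESN3 (1.78 ± 0.387), RRAGD (0.550 ± 0.322) and DEPTOR (0.247 ± 0.0404). The values of neighbours overlapped for TSC1 and SESN2, for SESN1 and SESN3, and for RRAGD and DEPTOR. In ACM, DDIT4 stood at 408 ± 107 TPM, and SESN2, at 16.5 ± 1.44 TPM, was placed above FNIP1 (14.5 ± 0.375 TPM) and TSC1 (9.74 ± 1.14 TPM), with no overlap between SESN2 and FNIP1. RRAGC (37.0 ± 4.31 TPM) and TSC2 (36.2 ± 6.10 TPM) overlapped in ACM, as did SESN3 with SESN1 and RRAGD with DEPTOR. DDIT4 alone gave 76.8 ± 4.79% of the summed TPM of the 10 genes in ACM and 58.5 ± 3.20% in UCM. Among all tested genes its mean TPM was at percentile 93.6 in UCM and 97.7 in ACM, and that of SESN2 at 37.8 and 51.7.

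**Figure D4:**
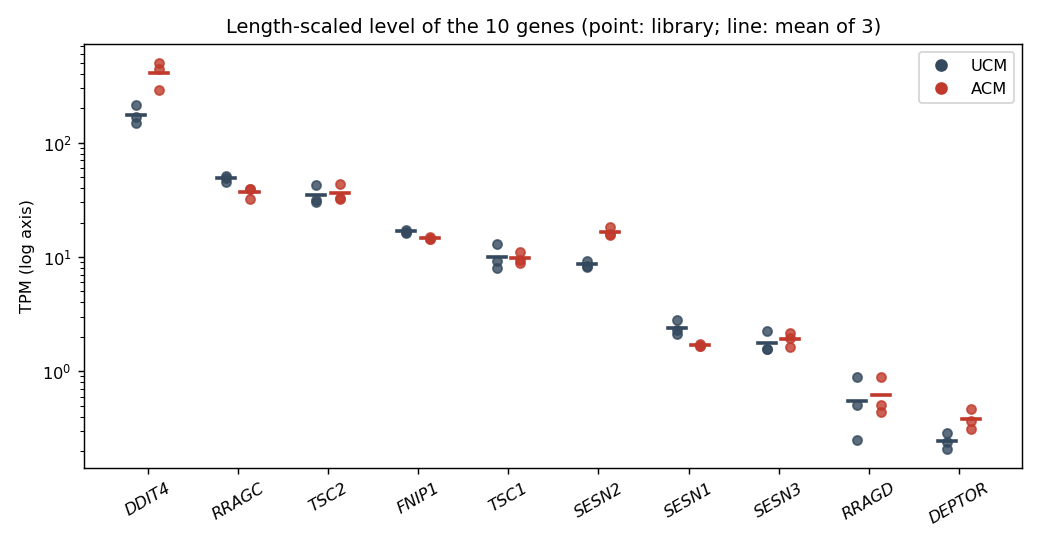
Length-scaled level of the 10 genes in TPM (vertical log axis), with a point for each library and a line for the mean of 3 libraries per medium. The genes run from DEPTOR, below 1 TPM, to DDIT4, at 148 to 213 TPM in UCM and 289 to 496 TPM in ACM.

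The wider pathway showed few calls. Of 64 other genes in 5 lists (mTOR complexes, Rag and Ragulator, GATOR and amino acid sensors, TSC inputs and Rheb, and mTORC1 substrates), 62 were tested, 3 rose, 1 fell and 58 did not pass edgeR's test. The background was 3.35% higher and 2.21% lower, and the median log2 FC of the 62 was -0.04 against -0.01 for all genes. DESeq2 called 4 higher and 1 lower (764 and 447 of all tested genes). In edgeR without UCM replicate 1, 3 were called higher and 4 lower, and 1 was called higher without ACM replicate 1, ACM replicate 3, UCM replicate 2 or UCM replicate 3.

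EIF4EBP1, the translation repressor 4E-BP1 that mTORC1 phosphorylates, rose from 209 ± 3.65 to 296 ± 18.4 CPM (log2 FC 0.50, SE 0.07, edgeR adjusted p = 0.00401) and was called in 15 of 15 alternatives. LPIN1, a phosphatidate phosphatase and mTORC1 substrate, fell from 26.7 ± 2.59 to 16.4 ± 1.66 CPM (log2 FC -0.70, SE 0.12, edgeR adjusted p = 0.00893), also in 15 of 15. GRB10, an adaptor that dampens insulin signalling, rose from 22.2 ± 0.556 to 29.8 ± 2.41 CPM (log2 FC 0.43, edgeR adjusted p = 0.0309). RHEBL1, a paralog of Rheb, rose from a low 0.716 ± 0.180 to 2.13 ± 0.560 CPM (log2 FC 1.57, edgeR adjusted p = 0.0354). GRB10 and RHEBL1 were each called in 8 of the 15 alternatives, with an adjusted p of up to 0.191 and 0.154.

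In the lists of mTOR complexes (10 tested), Rag and Ragulator genes (10 tested) and GATOR with amino acid sensors (16 tested), edgeR with all libraries called none, and DESeq2 and limma on log2 TPM with 1 added called none either. At an unadjusted p at or below 0.05, none was higher and 2 of 10, 3 of 10 and 2 of 16 were lower. Of all tested genes 11.9% were higher and 11.5% lower. Lists of 10 to 16 genes are too small to tell these counts from those shares. No test over the lists was run. The 3 of the Rag and Ragulator list were the Ragulator genes LAMTOR1 (log2 FC -0.25), LAMTOR4 (-0.23) and LAMTOR5 (-0.19), named after their values were seen, and the list median was -0.15. Without UCM replicate 1, RICTOR was called higher and LAMTOR1 and KPTN lower.

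**Figure D5:**
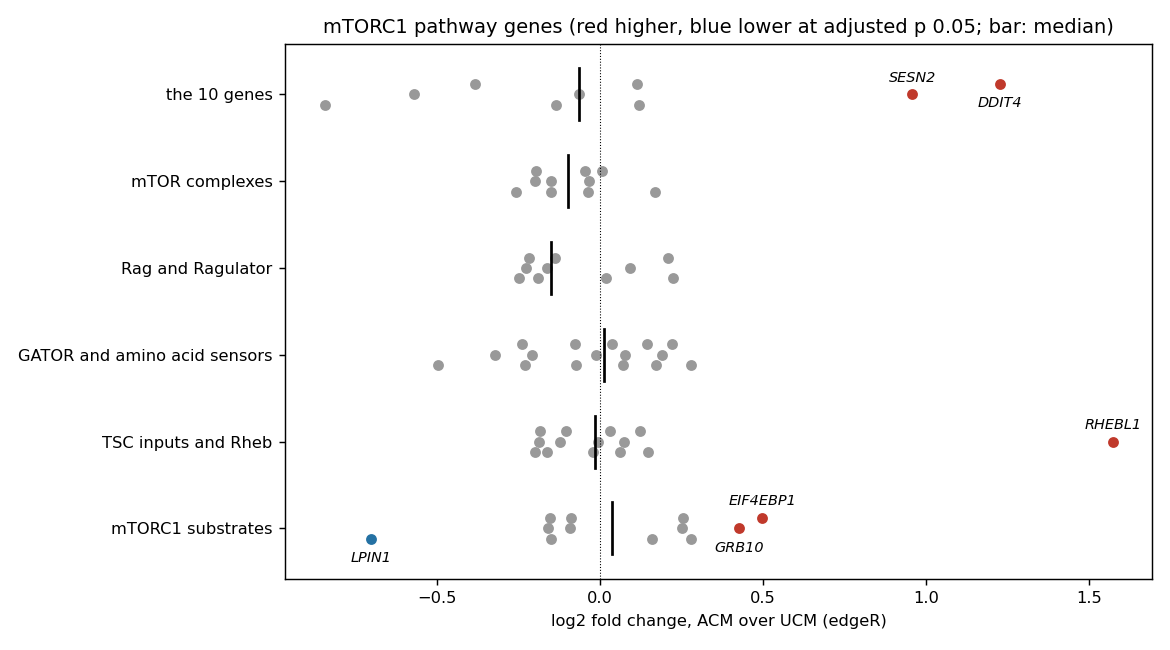
Log2 fold change of ACM over UCM by edgeR (horizontal axis) for each tested gene of the set and of 5 pathway lists (rows), with a bar at each median, red for genes called higher and blue for genes called lower. Calls outside the set were RHEBL1, EIF4EBP1 and GRB10 (red) and LPIN1 (blue), and the list medians ran from -0.15 to 0.04.

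DDIT4 and SESN2 are textbook targets of the stress factor ATF4, DDIT4 also of hypoxia-inducible factors, and sestrins of p53 and FOXO. Lists of other targets of these factors, and lists of TFEB targets and of glucocorticoid targets, were counted, chosen with earlier results of these data known. A list of ATF4 and CHOP targets, which also holds ATF4, had 20 genes tested. Of these, 10 rose and 1, ATF5, fell (3.35% and 2.21% of all tested genes). Their median log2 FC was 0.34 against -0.01 for all tested genes. Those that rose included PHGDH of serine synthesis (0.94), NUPR1 (0.72), the asparagine synthetase gene ASNS (1.21) and ATF4 itself (0.34). Over the list the log2 FC was positive for 15 genes and negative for 5. The 5 were ATF5 and, not called, the CHOP gene DDIT3 (-0.28), SLC7A5 (-0.20), STC2 (-0.13) and SLC3A2 (-0.11). ATF5 was not called with effective length offsets or with limma on log2 TPM with 1 or 0.1 added. The count of the list called higher was 8 to 11 when 1 library was left out, where 125 to 738 of all tested genes were called higher.

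Of 20 hypoxia targets tested, 5 rose and none fell (3.35% and 2.21% of all tested genes), with a median log2 FC of 0.50. The 5 were EGLN1 (0.36), PDK1 (0.71), BNIP3 (0.70), P4HA2 and MXI1, and 14 were higher and none lower at an unadjusted p at or below 0.05 (11.9% and 11.5% of all tested genes). This count depended on single libraries, with 0 called higher by edgeR without UCM replicate 2 or UCM replicate 3, 1 without ACM replicate 2, 2 without ACM replicate 1 and 10 without ACM replicate 3. Over all tested genes, edgeR called 125, 156, 197, 415 and 320 higher in these fits, in the same order, and 484 with all libraries. DESeq2 called 11 of the list higher and none lower (764 and 447 of all tested genes). With limma on log2 TPM with 1 added, 1 of the list was called higher (230 of all tested genes). Without UCM replicate 1 the count in the list was 4, and 738 of all tested genes were called higher. The DDIT4 call was lost without ACM replicate 1 or 2 and UCM replicate 1, 2 or 3 and kept without ACM replicate 3, so the pattern differed at UCM replicate 1, and the part of these libraries in either result was not tested.

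In the remaining lists, edgeR called 0 to 2 genes in each direction, where 3.35% of all tested genes were called higher and 2.21% lower. Leaving out 1 library, as done below for these lists, also moved the calls over all tested genes. Without ACM replicate 1, 2 or 3, in this order, edgeR called 415, 197 and 320 higher and 206, 87 and 190 lower. Without UCM replicate 1, 2 or 3 it called 738, 125 and 156 higher and 572, 70 and 62 lower. Of 19 p53 targets, BBC3 (log2 FC 1.32) and TNFRSF10B (0.48) rose and none fell in edgeR. At an unadjusted p at or below 0.05, 4 were higher and 2 lower (11.9% and 11.5% of all tested genes). DESeq2 called 4 higher and 0 lower (764 and 447 of all tested genes). Without ACM replicate 1, ACM replicate 3, UCM replicate 2 or UCM replicate 3, 1 was called higher, and without ACM replicate 1, 1 lower. Of 13 FOXO targets, none rose and CDKN1B (-0.37) fell in edgeR. The log2 FC was positive for 11 FOXO targets and negative for 2, with a median of 0.25 against -0.01 for all tested genes. At the unadjusted threshold 3 were higher and 1 lower, and DESeq2 also called 3 higher and 1 lower. Without ACM replicate 1, ACM replicate 2 or UCM replicate 1, 1 FOXO target was called higher, and without ACM replicate 2, ACM replicate 3, UCM replicate 2 or UCM replicate 3 none was called lower.

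Of 20 lysosomal and autophagy TFEB targets, CTSB (0.50) rose and NEU1 (-0.54) fell in edgeR. At an unadjusted p at or below 0.05, 3 were higher and 3 lower (11.9% and 11.5% of all tested genes). DESeq2 called 2 higher and 1 lower (764 and 447 of all tested genes). CTSB was not called without ACM replicate 2, ACM replicate 3, UCM replicate 2 or UCM replicate 3, and 2 were called lower without UCM replicate 1. Of 8 glucocorticoid targets, DUSP1 (0.53) rose and CRISPLD2 (-1.13) fell in edgeR. At the unadjusted threshold 2 were higher and 2 lower, and DESeq2 called 2 higher and 1 lower. No glucocorticoid target was called higher without ACM replicate 2 or UCM replicate 2, 2 were without ACM replicate 1, and 3 were called lower without UCM replicate 1.

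Among 9671 tested genes with a mean of at least 10 CPM, the profiles over the 6 libraries most like that of DDIT4 were those of TNC (tenascin C, a matrix glycoprotein), PAQR5 (a membrane progesterone receptor) and FZD8 (a Wnt receptor). Their mean absolute differences from DDIT4 in centred log2 CPM were 0.13, 0.14 and 0.15. TNC was at 338, 437 and 288 CPM in ACM and 159, 145 and 143 CPM in UCM. Most like SESN2 were GYPC (glycophorin C) at 0.04, SEMA4B (a semaphorin) at 0.07 and SLC6A9 (a glycine transporter) at 0.07. SLC6A9 was at 67.5, 75.5 and 65.0 CPM in ACM and 37.6, 39.6 and 38.4 CPM in UCM.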

How the data were processed

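Reads of 6 polyA-enriched, paired-end libraries went through Trim Galore, STAR on GRCh38 and then RSEM in the hands of the authors (versions, annotation and strand setting not given in the sources used here). The authors deposited, per library and gene, RSEM's expected count, not scaled for depth, the TPM and the effective length. A deposited table of DESeq2 log2 fold changes, standard errors, p-values and adjusted p-values was not used. Of 63140 identifiers, 62541 matched a symbol without their version.

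Expected counts were rounded and tested in R 4.3.3 with edgeR 4.0.16 (filterByExpr, TMM, robust quasi-likelihood, medium as the only term), with Benjamini-Hochberg adjustment over 14451 genes and a threshold of 0.05. CPM is TMM scaled. The common coefficient of biological variation was 0.115, and the script was tested on simulated data. Alternatives were DESeq2 1.42.0, RLE factors, library totals only, filters of at least 1 count in total or 10 counts in every library, effective length offsets, limma 3.58.1 on log2 of TPM plus 1 or 0.1, a replicate block, and leaving out each library. Overlaps came from GENCODE 44 and promoter windows from RefSeq.

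The members and lists were chosen with earlier results of these data known. Named were all 10 genes, up to 3 called genes with the smallest adjusted p per list with groups apart, and the 3 nearest profiles of each called gene. ATF4, ATF5, DDIT3, SLC7A5, STC2, SLC3A2, P4HA2, MXI1, the LAMTOR genes, RICTOR, KPTN and SEH1L were named after their values were seen. Depth limits RRAGD and DEPTOR most.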

Additional observations from a re-analysis of the deposited data

How the results depend on the processing

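SESN2 was called under all 15 alternatives. The number of the 10 genes called higher was 1 with the filter of at least 1 count in total and 1 to 2 when a library was left out. The number called lower was 1 (RRAGC) with DESeq2, with library totals only, with either other filter and with the replicate block, and 0 to 1 when a library was left out. Of the 62 pathway genes, 1 was called higher with effective length offsets and 1 to 3 with a library left out, and 2 were called lower with the filter of at least 1 count, 3 with the replicate block (LPIN1 and, of the GATOR list, KPTN and SEH1L) and 1 to 4 with a library left out. Signs turned for 2 genes that were never called, TSC1 (log2 FC 0.01 without ACM replicate 3 and 0.055 without UCM replicate 1, in a range of -0.17 to 0.055 with a library left out) and RRAGD (0.18 with effective length offsets, 0.068 and 0.21 with limma on TPM plus 1 and plus 0.1), as did the RRAGD to RRAGC ratio (0.61 in TPM). The cause was not tested beyond the change of effective length given for RRAGD. Calls over all genes were 484 higher and 320 lower, 764 and 447 with DESeq2, 1045 and 679 with the filter of at least 1 count, 272 and 134 with effective length offsets, 230 to 234 and 132 to 138 with limma, and 125 to 738 and 62 to 572 with a library left out. Whether replicate numbers pair the libraries was not settled, and the main fit did not pair them. Same-numbered deviations correlated at 0.28, 0.04 and 0.15 and differently numbered ones at -0.28 to 0.16. Of 6 libraries, 4 correlated best with their own number. The block gave 909 genes higher and 703 lower. The scalings moved the median of all genes by less than 0.1 on the log2 scale.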
